A study of Mus musculus with 2 samples.

Results

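The regions described here are those nearest the centromere on the 19 mouse autosomes, within a deposited list of places where trimethylation of lysine 4 on histone H3 (H3K4me3) gave more sequence tags in Mll-PTD than in wild-type (WT) cells. The rule that chose them was set with earlier results of these data known. It used position alone: every listed region on an autosome with a start below 6 Mb in the mm9 build. This gave 1519 of the 41561 listed regions (3.65%, exact binomial 95% interval 3.48% to 3.84%) and 4.01% of the 37853 autosomal ones.

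H3K4me3 was measured by chromatin immunoprecipitation and sequencing (antibody Abcam ab8580) in C57BL/6 mouse bone marrow cells labelled LSK, a fraction rich in blood stem cells and early progenitors. They were enriched on magnetic beads for CD117 and then for Sca1, and the list holds no expression values with which to check cell identity. One group was wild type, and the other was heterozygous for a knock-in of a partial tandem duplication of Mll. There was 1 library per genotype, with 58083118 tags for Mll-PTD and, computed from the scaling of the deposited values, about 43579233 for WT. Genotype and library therefore cannot be told apart, no test between genotypes was possible, and the 95% intervals below reflect counting error alone. The labels do not say how many mice gave each library.

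H3K4me3 lies at the starts of active and poised genes. Mll, now called Kmt2a, encodes a methyltransferase that places methyl groups on this lysine and keeps Hox genes active in blood stem cells, and the partial tandem duplication is found in acute myeloid leukaemia. Mouse autosomes are telocentric: the centromere sits at one end, in long arrays of satellite repeats that the assembly does not spell out, and the first assembled sequence follows them. Heterochromatin around centromeres is known for methylation of another lysine of histone H3, lysine 9, and for little H3K4me3.

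In mm9 the assembled sequence of these chromosomes begins at about 3 Mb, and no listed autosomal region started below 3 Mb. The 1519 regions thus fell within the first 3 Mb of assembled sequence of each autosome, 57 Mb in all. In the RefSeq gene table of another build, GRCm38.p6, the order of protein-coding genes from the centromere end of chromosome 12 includes Rab10, Kif3c, Asxl2, Dtnb, Dnmt3a and Pomc. Dnmt3a is a DNA methyltransferase, and Asxl2 encodes a chromatin regulator. On chromosome 2 the order starts with Fam171a1, Nmt2 and Rpp38 and goes on to Suv39h2, a histone H3 lysine 9 methyltransferase. On chromosome 3 it starts with Hnf4g and Zfhx4, and on chromosome 19 with Ighmbp2, Mrpl21, Cpt1a and Tesmin, with Kmt5b, a histone H4 lysine 20 methyltransferase, further on. These genes are picked examples from longer lists, and no shared function was tested. On some other chromosomes, such as 1 and 5, the order opens with unnamed LOC entries, and it is not given here. Because mm9 gene positions were not analysed here, no region was assigned to a gene, and regions are given by position.

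Listed regions were more closely packed next to the centromere than along the rest of the autosomes. The first 3 Mb held 26.6 regions per Mb, against 15.4 per Mb beyond 6 Mb, and the regions covered 2.16% of the sequence against 1.27%. The density was higher than in the rest of the same chromosome on 18 of 19 autosomes. The exception was chromosome 17, with 16 per Mb against 21.1. The median gap from one region to the next was 13290.5 bases, against 25369 bases between regions beyond 6 Mb, and 44.9% of 1500 gaps were 10 kb or shorter, against 35.2% of 36315. Chromosomes of a single pair of libraries are not replicates, so these densities are a description.

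Chromosome 14 stood far above the others with 240 regions, or 80 per Mb. Chromosomes 7 (118 regions, 39.3 per Mb), 19 (107, 35.7 per Mb), 4 (96, 32 per Mb) and 16 (87, 29 per Mb) followed. Chromosomes 1 and 3 held the fewest, 47 each, at 15.7 per Mb. Without chromosome 14, the first 3 Mb held 23.7 regions per Mb and the sequence beyond 6 Mb held 15.1.

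**Figure D1:**
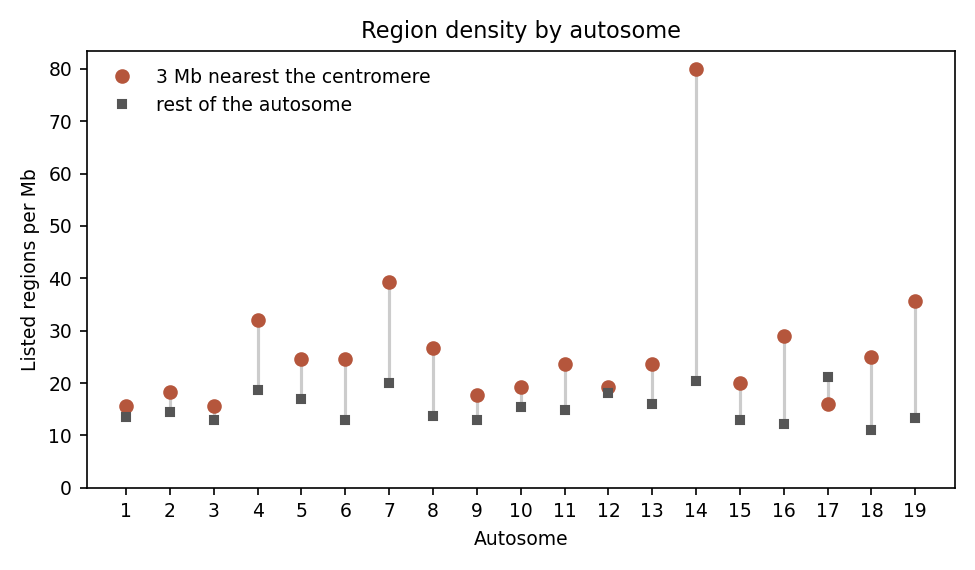
Listed regions per Mb (vertical axis) for each of the 19 autosomes (horizontal axis), in the 3 Mb nearest the centromere (circles) and in the rest of the autosome (squares), with a line joining both. The circle is above the square on 18 autosomes, and chromosome 14 reaches 80 per Mb.

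Against windows of the same width, the first 3 Mb was the fullest window of its chromosome on chromosomes 16, 18 and 19 and among the 3 fullest on 8 of 19 autosomes. It held more regions than the median of the chromosome's other windows on 18 autosomes. On chromosome 14 the fullest window was the one starting at 42 Mb, with 546 regions, and on chromosome 17 the one starting at 6 Mb, with 279.

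The high density did not end at 6 Mb over the 19 autosomes as a whole. The next 3 Mb held 24.9 regions per Mb, with 256 of its 1419 regions on chromosome 14 and 279 on chromosome 17. Without these chromosomes, the first 3 Mb held 24.1 regions per Mb, the next 3 Mb 17.3, the stretch from 9 to 12 Mb 18.5 and the last 3 Mb before the final listed region 17.2. Taken one by one, 15 autosomes had more regions from 3 to 6 Mb than from 6 to 9 Mb and 4 had fewer.

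The density was highest directly at the start of the assembled sequence. The first 250 kb held 270 regions, or 56.8 per Mb, the following 250 kb held 33.7 per Mb, and the last 250 kb before 6 Mb held 20.2 per Mb. The first 250 kb was denser than the sequence beyond 6 Mb on 18 of 19 autosomes and denser than the remainder of the first 3 Mb on 17. Leaving out chromosome 14 gave 56.7 per Mb. Chromosome 4 gave 31 of the 270 regions, chromosome 6 gave 24, chromosome 11 gave 21 and chromosome 18 gave 19, while chromosome 2 gave 2, chromosome 3 gave 4 and chromosome 1 gave 5.

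**Figure D2:**
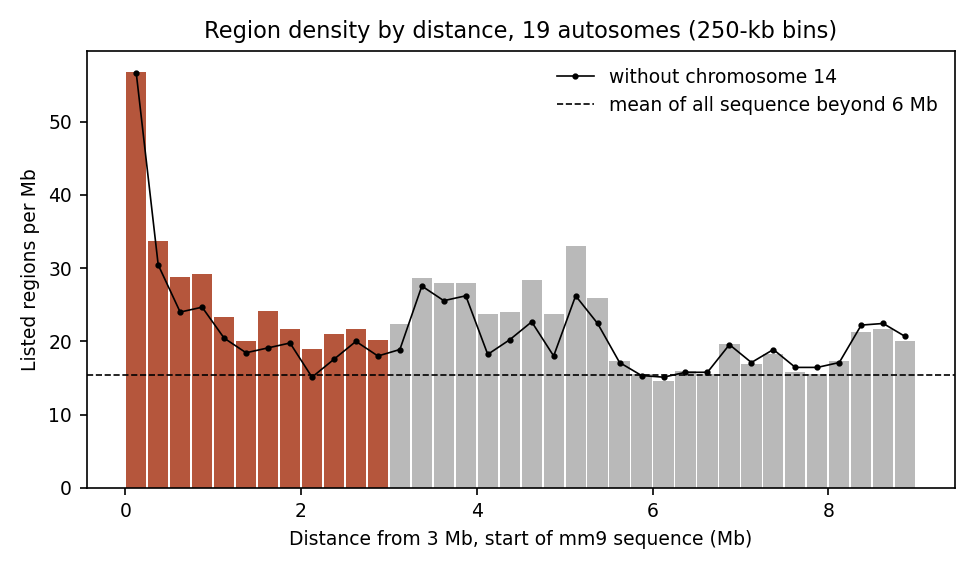
Listed regions per Mb (vertical axis) in 250-kb bins of distance from 3 Mb (horizontal axis, in Mb), summed over 19 autosomes; coloured bars are the regions described here, grey bars lie beyond 6 Mb. The first bin reaches 56.8 per Mb with chromosome 14 and 56.7 without it (points and line), and the dashed line is the mean of 15.4 per Mb beyond 6 Mb.

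A region stood close to the first assembled base on every autosome. Its start lay between 150 bases (chromosome 6) and 48946 bases (chromosome 1) from 3 Mb, with a median of 8620 bases, and on 13 autosomes it was within 10 kb. On chromosome 6 the first region ran from 3000150 to 3001681, with 115.5 Mll-PTD tags, scaled to the size of the WT library, against 6 WT tags, a ratio of 19.2 (8.65 to 53.3). On chromosome 5 it ran from 3000290 to 3000790, with 27 scaled Mll-PTD tags and no WT tag. The chromosome 5 region was 1 of 4 first regions with no WT tag; the others were on chromosomes 9, 13 and 17 and held 22.5 to 24.8 scaled Mll-PTD tags.

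The first regions of chromosomes 4 and 18 were the most heavily tagged of the 19. On chromosome 4, from 3007552 to 3013625, 396.9 scaled Mll-PTD tags stood against 20 WT tags, a ratio of 19.8 (12.7 to 32.8). On chromosome 18, from 3005182 to 3005943, 481.7 scaled tags stood against 94, a ratio of 5.12 (4.12 to 6.43). The latter region held 633 scaled Mll-PTD tags per kb and 124 WT tags per kb, the highest Mll-PTD density among the first regions, whose median was 49.6 per kb. Its clonal fold, the caller's measure of tags piled on the same bases, was 1.42, against a median of 0.74 in all 1519 regions, and its part in these tag numbers was not tested.

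In size and tag number most regions next to the centromere were like other autosomal regions. Of the 1519, 821 (54.0%) had the minimum length of 500 bases, against 56.9% of the other autosomal regions, 278 (18.3%) were longer than 1000 bases (17.8% of the others), and 31 were of 3000 bases or more. For Mll-PTD the median was 29.3 scaled tags (quartiles 24 and 45.8), and for WT it was 4 tags (quartiles 2 and 6). These medians and quartiles were the same in the 36334 other autosomal regions. Median densities were 48.9 scaled Mll-PTD tags per kb and 6 WT tags per kb, against 49.6 and 6.37 in the others. All the tags of these regions made up 0.168% of the Mll-PTD library and 0.0209% of the WT library.

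The Mll-PTD to WT ratio near the centromere differed little from that elsewhere. The list was called with WT as control and a threshold of 4-fold, so every region is higher in Mll-PTD by construction, and only the size of the ratio can be compared. Summed over the 1519 regions, 73092.5 scaled Mll-PTD tags stood against 9109 WT tags, a ratio of 8.02 (7.85 to 8.20), against 7.75 (7.71 to 7.78) in the other autosomal regions. After adding 1 tag to both counts, the median log2 ratio was 2.77 (quartiles 2.28 and 3.56) against 2.68 (2.23 and 3.46), and with regions without a WT tag held at 3 WT tags the median ratio was 7.7 against 7.5. The medians from 6 to 9 Mb (2.77) and from 9 to 12 Mb (2.78) were as high, and without chromosomes 14 and 17 the first 3 Mb had 2.69 and the sequence beyond 6 Mb 2.67. The summed ratio from 6 to 9 Mb was lower, 7.12 (6.98 to 7.25), with 1 bin of 250 kb at 5.20 and the others at 7.63 to 9.22. Chromosome by chromosome there was no common direction: the median log2 ratio was higher than in the rest of the chromosome on 10 autosomes and lower on 9.

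In the authors' deposited table, 768 of the 1519 regions (50.6%, exact binomial interval 48.0% to 53.1%) had a fold of at least 8, where the whole list had 47.0%. That table writes 0.5 where WT had no tag. With those regions held at 3 WT tags the count was 704 (46.3%), where the whole list had 43.3%. These shares lie near the background of the list. The 148 of 240 on chromosome 14 (61.7%) and the 36 of 48 on chromosome 17 (75%) lay above it in the authors' deposited table, while the 17 of 47 on chromosome 1 (36.2%) lay below. With regions without a WT tag held at 3 WT tags, these counts were 129 (53.75%), 27 (56.25%) and 16 (34.0%), against 43.3% of the whole list.

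Summed ratios of single autosomes ran from 5.97 (5.66 to 6.30) on chromosome 11 to 11.2 (9.88 to 12.7) on chromosome 17. Chromosome 12 followed with 10.3 (9.22 to 11.5), then chromosome 5 with 9.62 (8.58 to 10.8). The first 3 Mb of 13 autosomes had a higher summed ratio than the rest of the chromosome.

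Of the 456 bins of 100 kb with a region, the first of chromosome 11 held the most tags of both libraries and the most WT tags per kb. In Mll-PTD tags per kb it came second, after a chromosome 12 bin with 3 regions. Its 19 regions, from 3005555 to 3098436, held 219 scaled Mll-PTD tags per kb and 40.4 WT tags per kb, against 55.1 and 6.52 in all other regions nearest the centromere. None of the 19 lacked a WT tag, and their WT tags ran from 6 to 240. They took 13.9% of the WT tags and 9.37% of the Mll-PTD tags of all 1519 regions. Their summed ratio was 5.42 (5.11 to 5.75), and the tallest peak scored at least 40 in all 19, against 221 of the 1500 others. The other 52 chromosome 11 regions had a summed ratio of 8.68 (7.64 to 9.90), and without the 100-kb stretch the ratio of all regions nearest the centromere was 8.44 (8.25 to 8.64).

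An even spread of the WT library over the genome size in the header would put 21.8 tags on each kb. In 32 of the 1519 regions (2.11%, 1.45% to 2.96%) WT reached that level, and 15 of the 32 lay in this stretch of chromosome 11. Among other autosomal regions the share was 1.32% (1.21% to 1.44%). The higher share near the centromere rested on the chromosome 11 stretch, and without that stretch it was not higher.

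**Figure D3:**
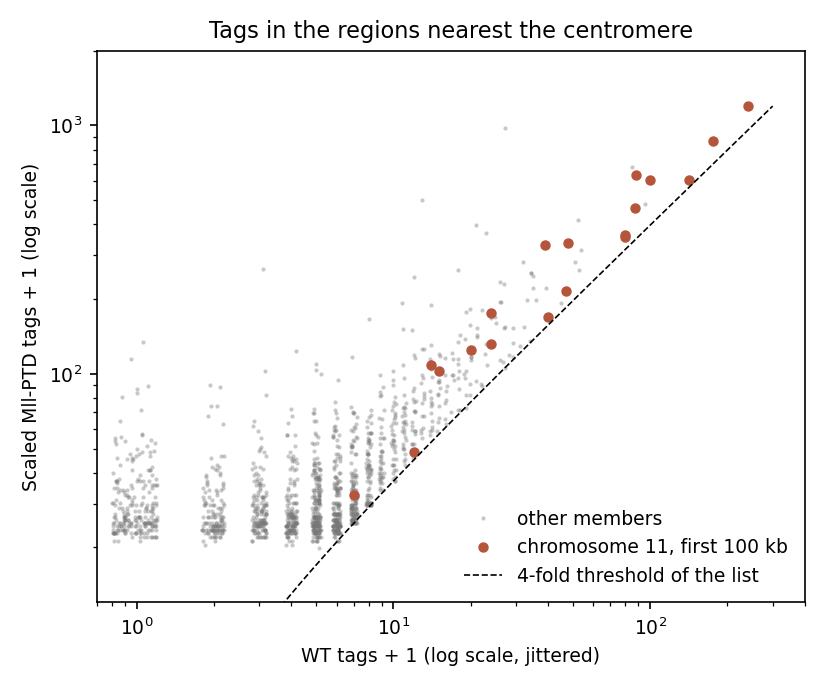
WT tags (horizontal axis) against scaled Mll-PTD tags (vertical axis), both plus 1 on log scales, for the 1519 regions; WT values of the grey points are jittered. The 19 regions in the first 100 kb of chromosome 11 (coloured) extend to 240 WT tags, and the dashed line is the 4-fold threshold that bounds the list.

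Of the 10 regions with the most tags near the centromere, 6 lay in the first 100 kb of chromosome 11. The first, from 3039044 to 3043614, held 1202 scaled Mll-PTD tags against 240 WT tags, a ratio of 5.01 (4.37 to 5.76). The second, from 3060156 to 3064182, held 867.3 against 174, a ratio of 4.98 (4.25 to 5.88). The lowest ratio of the 10 was at 3051272 to 3053589, with 604 against 141 tags and 4.28 (3.58 to 5.16), and the other 3 in the stretch had ratios of 5.37, 6.08 and 7.27. The 3 regions with the highest WT counts thus had ratios of 4.28 to 5.01, close to the 4-fold threshold.

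A pair of the 10 differed from that pattern. On chromosome 12, from 4219106 to 4222217, 979.1 scaled Mll-PTD tags stood against 26 WT tags, a ratio of 37.7 (25.6 to 57.9), with 315 scaled Mll-PTD tags per kb and 8.36 WT tags per kb. On chromosome 5, from 3435686 to 3439775, 499.7 stood against 12, a ratio of 41.6 (23.7 to 81.0). The latter held 122 scaled Mll-PTD tags per kb and 2.93 WT tags per kb. All 1519 regions together held 59.2 and 7.38 per kb, so both regions were far denser in Mll-PTD tags, with WT near or under that level. The remaining 2 of the 10 were the first region of chromosome 18 and a chromosome 17 region from 5879273 to 5885512, with 681.3 against 84 tags and a ratio of 8.11 (6.48 to 10.3).

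The order of the highest ratios depends on how regions without WT tags are treated. Among the 779 regions with at least 29.3 tags in the larger library, 9 of the 10 with the highest log2 ratio (pseudocount of 1) had no WT tag. The first, on chromosome 19 from 3823833 to 3825000, had 132.8 scaled tags against 0, a ratio of 44.3 with WT held at a floor of 3 tags. The exact 95% interval of the same tags starts lower, at 35.6, and in the other 8 regions without a WT tag it starts between 14.9 and 30.3. The second, on chromosome 11 from 5327695 to 5328839, had 113.3 scaled tags against 0, a ratio of 37.8 at that floor. Chromosome 19 held 2 more of the 10, from 4818158 to 4820088 (29.5 at that floor) and from 5241381 to 5242137 (23.5 at that floor).

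The 1 region of the 10 with WT tags lay on chromosome 2 from 3881719 to 3885656, where 264.1 scaled Mll-PTD tags over 3937 bases stood against 2 WT tags, a ratio of 132 (36.3 to 1095). Chromosome 2 also held 2 others, from 3531732 to 3532486 (82.5 scaled tags against 0, 27.5 at the floor) and from 5239555 to 5240491 (63.8 against 0, 21.3 at the floor). The rest lay on chromosome 16 from 3946350 to 3947103, chromosome 13 from 3087710 to 3089618 and chromosome 18 from 3928692 to 3929610, with 85.5, 79.5 and 56.3 scaled Mll-PTD tags and no WT tag. With a pseudocount of 5, 7 of these 10 stayed among the top 10, 6 of which had no WT tag, and the chromosome 2 region at 3881719 came first. The chromosome 12 and chromosome 5 regions with many tags then had log2 ratios of 4.99 and 4.89, above the 4.78 of the first chromosome 19 region. With a pseudocount of 0.5, all of the top 10 lacked a WT tag. The 10 regions named spread over 6 autosomes, and 1 of them, that of chromosome 13, was in the first 250 kb.

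The 5 longest regions were not the ones with the highest ratios. The longest, on chromosome 16 from 3231511 to 3237963 (6452 bases), held 369.1 scaled Mll-PTD tags against 22 WT tags, a ratio of 16.8 (10.96 to 27.02), with a clonal fold of 1.24. The others were the chromosome 17 region at 5879273 and the first region of chromosome 4, both given above, and a region each on chromosomes 7 and 19. On chromosome 7, from 3791253 to 3797147, 315.1 tags stood against 53, a ratio of 5.95 (4.46 to 8.07). On chromosome 19, from 3162232 to 3167749, 281.4 stood against 31, a ratio of 9.08 (6.29 to 13.6).

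The most crowded 100-kb bins lay on chromosomes 4, 11, 7 and 14. Chromosome 4 from 3.1 to 3.2 Mb and the first 100 kb of chromosome 11 held 19 regions each, chromosome 7 from 3.7 to 3.8 Mb and chromosome 14 from 3.6 to 3.7 Mb held 18 each, and chromosome 4 from 3.2 to 3.3 Mb held 15. Unlike the chromosome 11 bin, the other 4 had WT densities of 4.24 to 6.91 tags per kb. The summed ratio was 10.04 (8.08 to 12.6) and 10.5 (8.04 to 13.96) in the chromosome 4 bins, 7.68 (6.53 to 9.08) on chromosome 7 and 8.48 (6.82 to 10.7) on chromosome 14. Of 570 bins of 100 kb, 456 held at least 1 region.

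The 240 regions of chromosome 14 were spread through the stretch rather than gathered at its start, with 95 from 3 to 4 Mb, 74 from 4 to 5 Mb and 71 from 5 to 6 Mb, and 15 in the first 250 kb. They were low: 13 of the 240 (5.42%) had a tallest peak scoring at least 40, against 15.8% of all regions nearest the centromere, and the summed WT density was 5.34 tags per kb. The summed ratio was 9.33 (8.71 to 9.99), and the median log2 ratio was 3.10, against 2.79 in the rest of the chromosome. These traits did not end at 6 Mb. By 1-Mb steps from 6 to 9 Mb, the summed ratios were 11.1, 8.93 and 10.6, and the median log2 ratios ran from 2.80 to 3.37. In these steps 4.55%, 8.40% and 8.45% of the regions had a tallest peak scoring at least 40. Low regions with high ratios were thus not particular to the first 3 Mb of this chromosome. The crowded block of the same chromosome from 42 to 45 Mb had a summed ratio of 8.67 (8.36 to 8.999), whose interval overlaps that of the first 3 Mb, with 22.7% of its 546 regions scoring at least 40.

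No WT tag was found in 226 of the 1519 regions (14.9%, 13.1% to 16.8%), against 13.8% (13.4% to 14.2%) of the other autosomal regions, so the intervals overlapped. The share was higher than in the rest of the chromosome on 9 of 19 autosomes. In regions of 500 bases it was 18.8% (16.1% to 21.6%) against 16.6% (16.1% to 17.1%), and in longer ones of up to 1000 bases 15.5% (12.2% to 19.3%) against 14.6% (13.9% to 15.3%). Of the 75 regions of at least 2000 bases none lacked a WT tag, where the others had 30 of 2069.

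Chromosome 17 stood apart in this measure. Its first 3 Mb had 20 of 48 regions with no WT tag (41.7%, 27.6% to 56.8%), against 16.95% (15.3% to 18.7%) in the rest of the chromosome. Both length groups shared in it: 13 of 27 regions of 500 bases and 7 of 21 longer ones lacked a WT tag. The median log2 ratio was 3.43, against 2.78 in the rest of the chromosome. The median clonal fold was 0.85 and 9 of the 48 had one above 1 (18.8%), against 4.02% of all regions nearest the centromere, and its part in the share was not tested. By 1-Mb steps, 9 of 16 regions from 3 to 4 Mb lacked a WT tag, 1 of 6 from 4 to 5 Mb and 10 of 26 from 5 to 6 Mb. The share stayed high directly beyond, with 41 of 157 (26.1%), 20 of 74 (27.0%) and 14 of 48 (29.2%) from 6 to 9 Mb.

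Chromosome 19 came second, with 25 of 107 (23.4%, 15.7% to 32.5%) against 13.9% (11.5% to 16.6%) in the rest, and a median clonal fold of 0.82. Chromosomes 18 (4 of 75, 5.33%) and 3 (3 of 47, 6.38%) had the lowest shares.

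**Figure D4:**
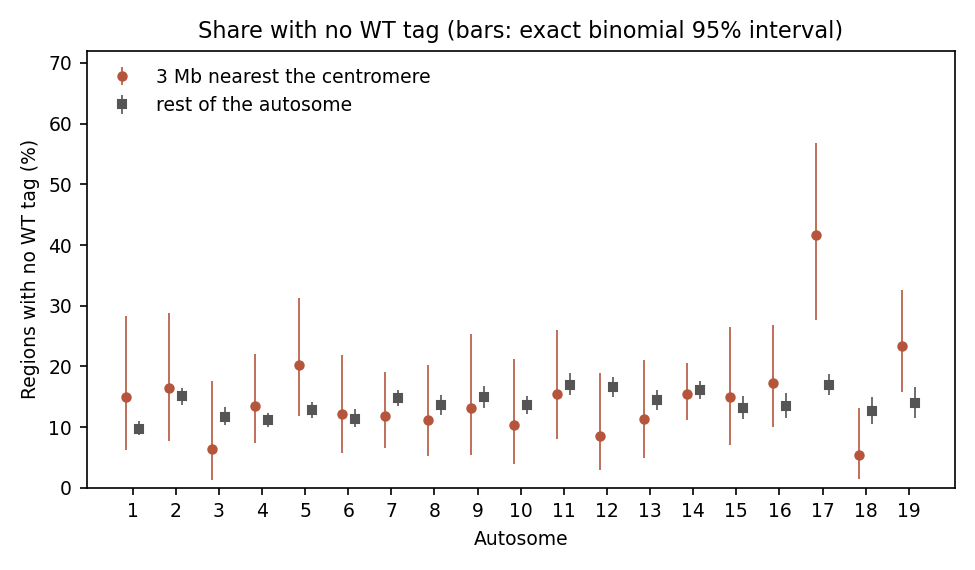
Percent of listed regions with no WT tag (vertical axis) for each autosome (horizontal axis), in the 3 Mb nearest the centromere (circles) and in the rest of the autosome (squares), with exact binomial 95% intervals. Chromosome 17 reaches 41.7% near the centromere, and on the other 18 autosomes the intervals overlap.

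In the first 250 kb, 57 of 270 regions had no WT tag (21.1%, 16.4% to 26.5%), against 169 of the 1249 regions further on (13.5%, 11.7% to 15.6%). Shares as high also occurred in other 250-kb bins, such as 24 of 106 (22.6%) in the first beyond 6 Mb and 20 of 100 (20%) from 2.25 to 2.5 Mb of distance, so the share was not particular to the first bin. Without the first 250 kb the share was no longer above the 13.8% of the other autosomal regions. In regions of 500 bases the shares were 27.3% (20.1% to 35.5%) and 17.01% (14.3% to 20.04%), and in longer ones 14.5% (8.96% to 21.7%) and 9.35% (7.08% to 12.05%). Chromosome 17 gave 7 of the 57; without it the share was 19.3% (14.7% to 24.6%). The share in the first 250 kb was above that beyond 6 Mb on 13 of 19 autosomes.

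The median log2 ratio was 2.95 in the first 250 kb, 2.74 from there to 1 Mb, 2.62 from 1 to 2 Mb and 2.77 from 2 to 3 Mb of distance. The summed ratio had another order, 7.42 (7.12 to 7.74), 8.29, 8.02 and 8.47. Without the first 100 kb of chromosome 11 it was 9.50 (8.96 to 10.1) in the first 250 kb, above the other 3 classes, which are wider. The 250-kb bins starting at 1 and 8.5 Mb of distance were as high, at 9.72 (8.90 to 10.6) and 9.50 (8.66 to 10.4). The other later bins up to 12 Mb were lower. A median log2 ratio of 2.97 occurred in the first bin beyond 6 Mb and in the bin starting at 7 Mb of distance. Neither the summed ratio nor the median was thus particular to the first bin. The median clonal fold was 0.77 in the first 250 kb and 0.71 to 0.74 in the later classes, and its part in these differences was not tested.

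At the 6-Mb limit, the last regions inside were at 5989075 on chromosome 11, with 24.8 scaled Mll-PTD tags against 6 WT tags, and at 5990347 on chromosome 10, with 27.8 against 0. The first outside were at 6003100 on chromosome 7, with 24 against 4, and at 6005710 on chromosome 17, with 26.3 against 0. All 4 were 500 bases long.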

How the data were processed

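Reads of both libraries were processed by the authors, and Bowtie 0.12.7, HOMER 4.7 and mm9 are named per the submitters' processing notes. Per the file headers, the deposited list came from the HOMER peak finder in histone style, run on Mll-PTD tags against WT tags. Peaks of 500 bases were stitched into regions, with a false discovery rate of 0.001, a threshold of 30 tags and 4-fold over WT. A limit of 0.0001 on the Poisson p-value over WT was also set, and the highest such p-value in the list was 3.45e-07. Per the file headers, the signal columns give tags per region: Mll-PTD normalised to the WT total, and WT, where 0 is written as 0.5. The fold ratio, the Poisson p-value and the scores (tallest peak, clonal fold) are the authors' deposited values, and the p-value was not used as a test between genotypes.

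Groups are the genotypes in the labels. Dividing scaled tags by 0.750 gave whole Mll-PTD tags within 0.1 for 100% of regions. Ratios divide summed scaled Mll-PTD tags by the WT sum, with exact (Clopper-Pearson) intervals of the tag split, and shares carry exact binomial intervals. Tags are not independent molecules. Ratios at a floor set 0 WT tags to 3, and they are not lower limits. WT counts above 0 but below 3 were left as they were. A region with no WT tag can therefore get a lower ratio than one with few WT tags. Densities use 3 Mb per autosome and, beyond 6 Mb, the span to the last listed region. Assembly gaps were not removed from either length, because their positions were not given. The ratio, interval and zero count were tested on simulated Poisson tags with ratios set in advance. The simulation applied no 4-fold or tag threshold and no picking of the highest ratios. It therefore cannot show how well the intervals hold for listed regions or for those named for high ratios.

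Named regions are the first on each autosome, the 10 with the highest log2 ratio among those with at least the median number of tags, the 10 with the most tags, the 5 longest and the 5 fullest 100-kb bins. The members and rules were chosen with earlier results of these data known, and the 250-kb and chromosome 11 comparisons after seeing the data. Computation used scipy 1.17.1, pandas 2.3.3 and numpy 2.4.6 under Python 3.11.15, and figures matplotlib 3.10.9.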

Additional observations from a re-analysis of the deposited data

How the results depend on the processing

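A limit of 9 Mb gave 2938 regions and a summed ratio of 7.52. The summed ratio from 6 to 9 Mb alone was 7.12 (6.98 to 7.25). Among its 250-kb bins it was 5.20 (5.03 to 5.36) from 4 to 4.25 Mb of distance and 7.63 to 9.22 in the others. A fold of at least 8 in the authors' deposited table left 768 regions, 13.5 per Mb, with a median log2 ratio of 3.55, a summed ratio of 16.3 and 29.4% with no WT tag, values that this threshold raises by construction. Keeping regions at or above the list's median tag count left 779, 13.7 per Mb, with a median length of 800 bases and 10.8% with no WT tag. A pseudocount of 5 moved the median log2 ratio from 2.77 to 2.12, one of 0.5 gave 2.88, and it was 2.86 in regions with a WT tag and no pseudocount. The summed ratio of 8.02 was 8.25 without the first 250 kb and 8.44 without the first 100 kb of chromosome 11, both chosen after seeing the data.

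The density stood at 1.55 to 1.92 times that of the other autosomal sequence under each of these settings, a limit of 5 Mb, merging at 1 kb, and leaving out chromosome 14 or 17. No 1-Mb bin near the centromere held 100 regions, the most being 95, so leaving out such bins could not be run. Log2 ratios of 9 named regions with no WT tag moved with a pseudocount of 5. Gene starts, base composition and repeats in mm9 were not analysed here. No paired analysis was possible because there was only 1 library of either genotype. With a median of 4 WT tags, ratios of single regions have wide intervals.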

Other observations

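The X chromosome, which is not among the regions above, had a dense start as well. From 3 to 6 Mb it held 127 regions, or 42.3 per Mb, against 11.1 per Mb from 6 Mb to its last listed region, and its first region started at 3013107.

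The end of the autosomes away from the centromere was less dense. The last 3 Mb before the final listed region held 964 regions, or 16.9 per Mb, with a summed ratio of 8.02 (7.80 to 8.25) and 15.8% (13.5% to 18.2%) with no WT tag. Both values were close to the 8.02 and 14.9% of the 1519 regions nearest the centromere. The match in ratio rests on the first 100 kb of chromosome 11: without it the regions nearest the centromere had a summed ratio of 8.44 (8.25 to 8.64).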
